A study of Mus musculus with 24 samples.

Results

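Brains of mice infused with angiotensin II and injected with human amnion epithelial cells (AECs) were compared with brains of mice that received vehicle alone, to ask whether the doubly treated brain differs from the untreated one. The comparison took 12 of the 24 mice of the study, 6 in each group, and it does not use the mice given angiotensin II alone. All were young adult male wild-type C57Bl6 mice. The angiotensin II + AEC group received 0.7 mg angiotensin II per kg body weight per day from an osmotic minipump for 2 weeks and a tail vein injection of AECs isolated from term placentae on the day of pump implantation. The vehicle group received 0.9% saline by pump and, as the study's methods describe it, saline in place of cells. Angiotensin II and the cells were given together, so this comparison cannot tell the effect of either from that of both. Brain hemispheres were used, and the methods do not say that these were cleared of blood. The unit is FPKM, fragments per kilobase of gene scaled to the size of the library. A gene entered the test if 6 or more of the 12 mice had a value above 0, which left 24280 genes, of 54532 in the table.

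Angiotensin II is the effector peptide of the renin-angiotensin system. It constricts arteries, promotes salt retention and is widely used to raise blood pressure in mice, and it also activates endothelium and leukocytes. AECs are placental epithelial cells that are studied for their anti-inflammatory secretions. Neutrophils, short-lived granulocytes of the blood, pack antimicrobial proteins into granules while they mature in the bone marrow: azurophil granules are filled at the promyelocyte stage, and specific granules later.

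The 12 libraries held 16645396 to 25308700 fragments. They fell into 2 sets that the labels do not name: vehicle mice 5 and 6 and angiotensin II + AEC mice 5 and 6 had FPKM totals of 338334 to 348007, and the other 8 mice totals of 278042 to 291622. Among genes with a mean of at least 1 FPKM, the first principal component carried 63.3% of the variance and separated these sets, with 2 mice of each group on the high side. Both groups are equally split, and for named genes whose call is lost without the high set the p in the 8 mice of the low set is given.

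No gene passed an adjusted p of 0.05 (limma on log2(FPKM + 0.1), Benjamini-Hochberg over 24280 genes). The lowest adjusted p was 0.257, for Ctsg, and limma voom on the recovered reads likewise gave 0 adjusted and 460 unadjusted calls. At an unadjusted p under 0.05 there were 455 genes, 1.87% of those tested, of which 229 (0.943%) were higher and 226 (0.931%) lower in angiotensin II + AEC brains. Of these 455, 68 had a mean of at least 1 FPKM and 387 a lower mean. With library set as a term, 1062 genes (4.37%) had an unadjusted p under 0.05, 541 higher (2.23%) and 521 lower (2.15%), and a block for replicate number gave 1143 (4.71%), 598 higher and 545 lower. The shares of 1.87%, 4.37% and 4.71% are all below the fraction of 0.05 that this threshold would pass if no gene differed and p-values were evenly spread. The counts are thus no excess of calls. The median log2 difference over all genes tested was 0.0017. Below, "higher" and "lower" mean an unadjusted limma p under 0.05, "exact p" is that of the 2-sided exact permutation test over 924 splits of the mice, and every gene so described failed the correction over all genes.

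**Figure D1:**
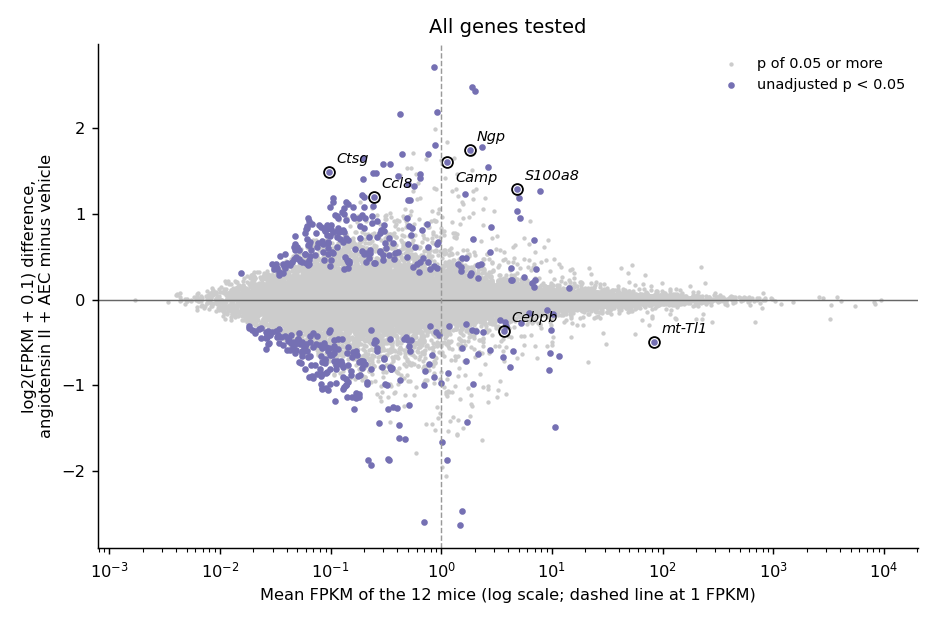
Difference between groups for each gene tested, as log2(FPKM + 0.1) in 6 angiotensin II + AEC mice minus 6 vehicle mice (y axis), against its mean FPKM over the 12 mice (x axis, log scale). Purple points have an unadjusted p under 0.05, and most of them (387 of 455) lie left of the dashed line at 1 FPKM. The circled genes are described in the text.

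The group of genes that differed most was that of neutrophil granules and calprotectin. Of 20 listed genes 18 could be tested, all 18 differences were above 0, and 9 were higher in angiotensin II + AEC brains, against 0.943% of all genes: Ctsg, Elane, Mpo, Camp, Ltf, Ngp, Chil3, S100a8 and S100a9. None was lower. The list's median log2 difference was 0.93, against 0.0017 over all genes, and 50.9% of all genes tested had a difference above 0. The list was chosen with earlier results of these data known, so its count describes these mice and is not tested.

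Promoters of 3 azurophil granule genes and of S100a8 are shown because these genes, from 4 chromosomes, were higher together. Each is the RefSeq window of 250 bases before to 50 bases after the start of the gene (GRCm38.p6), printed 5′ to 3′ on the strand of the gene, at chr14:56102525-56102824 (minus strand) for Ctsg, chr10:79886062-79886361 (plus) for Elane, chr11:87793534-87793833 (plus) for Mpo and chr3:90668821-90669120 (plus) for S100a8. Capitals mark GAGGAA, a core that the myeloid factor PU.1 and other ETS factors recognise, on either strand, so that a site on the other strand reads TTCCTC.
Ctsg: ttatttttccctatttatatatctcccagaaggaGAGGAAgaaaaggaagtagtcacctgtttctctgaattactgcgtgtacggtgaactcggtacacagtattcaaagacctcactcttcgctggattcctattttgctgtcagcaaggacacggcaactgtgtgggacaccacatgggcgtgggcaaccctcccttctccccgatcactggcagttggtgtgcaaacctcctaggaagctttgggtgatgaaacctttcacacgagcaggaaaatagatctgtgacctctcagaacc
Elane: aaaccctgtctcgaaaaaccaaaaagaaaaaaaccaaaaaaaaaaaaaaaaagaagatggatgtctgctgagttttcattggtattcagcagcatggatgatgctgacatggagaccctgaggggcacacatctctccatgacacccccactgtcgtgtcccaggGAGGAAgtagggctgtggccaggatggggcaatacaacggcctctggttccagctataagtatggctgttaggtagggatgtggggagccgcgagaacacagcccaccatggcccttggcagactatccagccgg
Mpo: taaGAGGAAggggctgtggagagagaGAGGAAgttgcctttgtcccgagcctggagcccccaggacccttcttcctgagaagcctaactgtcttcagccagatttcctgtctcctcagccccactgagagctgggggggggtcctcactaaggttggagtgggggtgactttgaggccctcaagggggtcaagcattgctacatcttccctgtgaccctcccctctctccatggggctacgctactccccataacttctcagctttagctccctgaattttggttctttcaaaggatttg
S100a8: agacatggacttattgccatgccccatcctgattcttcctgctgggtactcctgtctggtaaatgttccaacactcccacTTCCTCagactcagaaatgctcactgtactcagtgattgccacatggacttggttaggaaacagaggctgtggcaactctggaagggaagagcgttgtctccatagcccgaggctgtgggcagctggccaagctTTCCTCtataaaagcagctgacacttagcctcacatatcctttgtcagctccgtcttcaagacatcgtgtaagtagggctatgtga

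The core occurred once in the Ctsg and Elane windows and at 2 places in those of Mpo and S100a8. Of the listed neutrophil genes 19 had a promoter in the reference table, and 12 of these held GAGGAA, against 28.3% of all 32851 promoter windows. A core of the C/EBP factors, TTNNGNAA on either strand, was found in 11 of the 19 and in 40.7% of all windows. Of the 4 windows shown only that of S100a8 held it, at 1 place that did not overlap GAGGAA. Of the 9 genes that were higher, Camp, Ngp, Chil3 and S100a9 lacked GAGGAA in their windows, and Prtn3, Csf3r, Lcn2, Mmp8 and Cxcr2, which did not pass, held it. A match of letters is a description and not evidence of binding.

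Ctsg encodes cathepsin G, a serine protease of azurophil granules. Not a single Ctsg read was found in any of the 6 vehicle mice, whereas angiotensin II + AEC mice 1 to 6 had 6, 5, 1, 4, 3 and 4 reads, or 0.331, 0.239, 0.0505, 0.190, 0.137 and 0.217 FPKM. The groups did not overlap, which held for 13 genes (0.0535%) of all tested. Against a floor of 3 reads summed over the vehicle mice, the 23 reads of the treated mice were at least 7.81-fold higher per fragment sequenced (limma p = 1.06e-05; exact permutation p = 0.00216, the smallest that 924 splits allow). Such low counts leave the size of the difference uncertain. A gene without reads in vehicle could pass the filter only if all 6 treated mice had a value above 0. Given the absence in vehicle, the separation and the exact p follow from the filter, and the limma p is drawn from the same values.

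Elane, neutrophil elastase of the same granules, averaged 0.0605 ± 0.040 FPKM (SD, n = 6) in vehicle and 0.426 ± 0.40 (n = 6) in angiotensin II + AEC brains. Its vehicle values ran from 0 to 0.109 with a median of 0.0564, and the treated ones from 0.106 to 1.19 with a median of 0.303, so that 5 of the 6 treated mice were above all vehicle mice. The log2 difference was 1.47 ± 0.38 (SE; limma p = 0.00213, exact p = 0.00433). Treated mouse 4 carried 24 of the 49 Elane reads of its group.

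Mpo, the myeloperoxidase of azurophil granules, ranged from 0.0291 to 0.119 FPKM in vehicle mice (median 0.0582) and from 0.0609 to 0.50 in treated mice (median 0.246). Treated mice 1, 2, 4 and 6 exceeded every vehicle mouse, while treated mice 3 and 5 lay among them (log2 difference 0.98 ± 0.30, limma p = 0.00661, exact p = 0.0173). Prtn3, a proteinase of the same granules whose gene lies next to Elane and overlaps Plppr3, did not follow: it averaged 1.05 ± 0.30 FPKM in vehicle and 1.19 ± 0.35 in treated mice, with a log2 difference of 0.15 and a 95% interval from -0.34 to 0.64.

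Genes of the specific granules were higher too. Camp, the precursor of the antimicrobial peptide cathelicidin, was at 0.213, 0.131, 0.837, 0.360, 1.15 and 0.414 FPKM in vehicle mice 1 to 6. In angiotensin II + AEC mice 1 to 6 it was at 1.5, 0.913, 0.688, 2.97, 1.18 and 3.03 FPKM. Mice 4 and 6 of the treated group stood highest and 4 of the 6 exceeded every vehicle mouse (log2 difference 1.60 ± 0.46, limma p = 0.00409, exact p = 0.013). Ngp, neutrophilic granule protein, went from 0.744 ± 0.55 to 2.86 ± 2.2 FPKM (log2 difference 1.75 ± 0.54, limma p = 0.00660, exact p = 0.0195), with the same 2 treated mice at 5.77 and 5.49 FPKM and the others between 0.971 and 2.33.

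Ltf, which encodes the iron-binding protein lactoferrin, had vehicle values of 0.0312 to 0.199 FPKM, and treated values of 0.0573 to 1.65 FPKM. Only treated mouse 2 fell within the vehicle range (log2 difference 1.44 ± 0.50, limma p = 0.0139, exact p = 0.0346). Lcn2, the iron-siderophore binding lipocalin of the same granules, which astrocytes and endothelium can also make, did not pass: the vehicle mice lay between 0.422 and 1.23 FPKM and the treated mice between 0.490 and 4.19, with mouse 1 far above the rest (log2 difference 0.58 ± 0.44, limma p = 0.208, exact p = 0.273).

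S100a8 and S100a9 encode the subunits of calprotectin, an abundant protein of the neutrophil cytosol. S100a8 was at 3.02, 2.44, 2.13, 2.36, 3.69 and 1.75 FPKM in vehicle mice 1 to 6 and at 6.82, 3.92, 4.06, 14.0, 3.54 and 10.8 FPKM in the treated mice. All but treated mouse 5 exceeded every vehicle mouse (log2 difference 1.29 ± 0.33, limma p = 0.00192; exact permutation p = 0.00433). S100a9 went from a mean of 4.26 ± 2.0 to 11.4 ± 7.2 FPKM, with treated mice 2 and 3 inside the vehicle range of 2.18 to 7.02 (log2 difference 1.26 ± 0.43, limma p = 0.0124, exact p = 0.0325). Chil3, a chitinase-like protein of neutrophils and some macrophages, ranged from 0.0334 to 0.464 FPKM in vehicle and from 0.174 to 1.30 FPKM in treated brains (log2 difference 1.34 ± 0.47, limma p = 0.0129, exact p = 0.026).

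**Figure D2:**
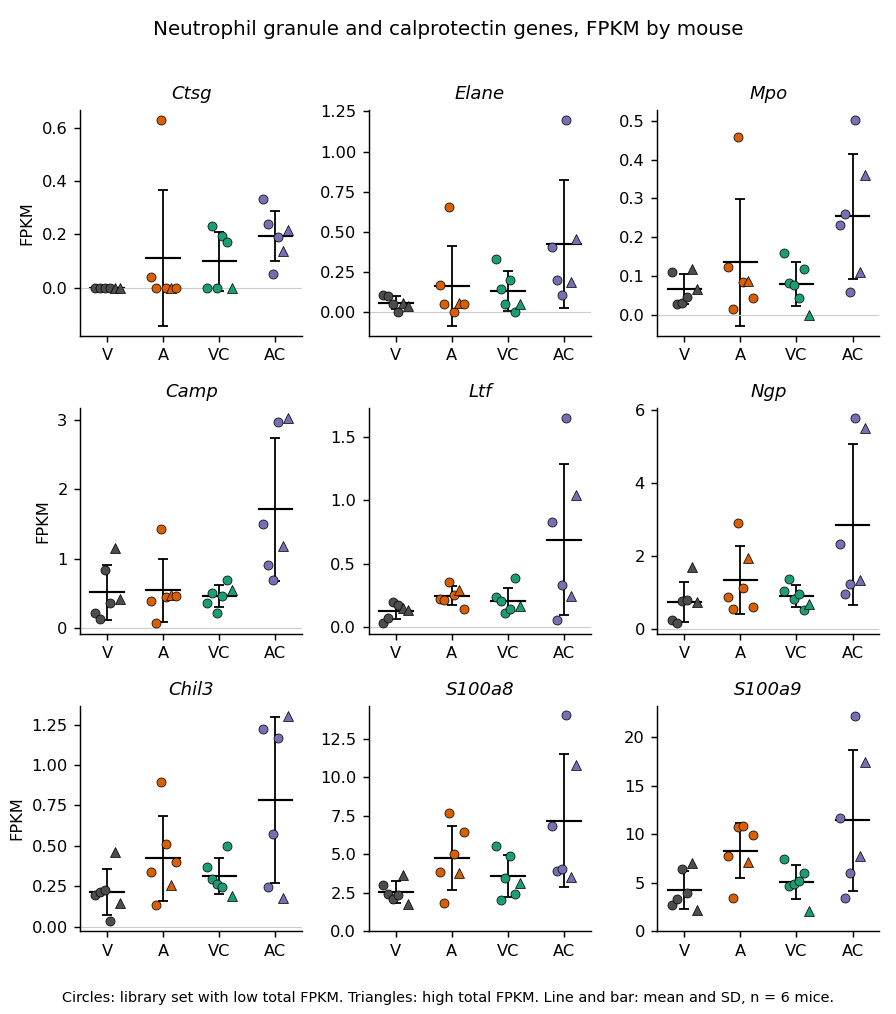
FPKM of 9 neutrophil granule and calprotectin genes in each mouse of the vehicle (V), angiotensin II (A), vehicle + AEC (VC) and angiotensin II + AEC (AC) groups (6 mice each). Points are mice, triangles the libraries of high total FPKM, and the line and bar the mean and SD. Ctsg is at 0 in all V mice, and AC mice 4 and 6 are the highest of their group for Camp, Ngp, S100a8 and S100a9.

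The remaining 9 tested members did not pass. Csf3r, the receptor for granulocyte colony-stimulating factor, averaged 2.03 ± 0.17 FPKM in vehicle and 2.09 ± 0.59 in treated brains (log2 difference 0.01, 95% interval -0.33 to 0.35). The gelatinase gene Mmp9 averaged 0.702 ± 0.087 and 0.806 ± 0.23 FPKM (limma p = 0.441, exact p = 0.4), and Retnlg, a resistin-like protein of mature neutrophils, 0.356 ± 0.23 and 0.786 ± 0.47 FPKM (limma p = 0.0879, exact p = 0.126). Fcnb, Mmp8, Cxcr2 and Padi4 had log2 differences between 0.13 and 0.44. The neutrophil surface marker Ly6g was seen with 1 read in the 6 vehicle and 5 reads in the 6 treated mice and could not be tested, nor could Stfa2l1.

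Summed over the whole list, the neutrophil genes reached 10.3 to 19.3 FPKM (median 12.4) in vehicle and 15.7 to 57.5 FPKM (median 27.4) in angiotensin II + AEC mice. Treated mice 1, 4, 5 and 6, at 34.5, 57.5, 20.3 and 47.6 FPKM, were above every vehicle mouse, and mice 2 and 3, at 15.7 and 17.8 FPKM, were not. In bulk tissue, more cells of a type and more RNA per cell cannot be told apart, and neither can leukocytes in the tissue and those in blood left in its vessels. All 9 genes stayed past the threshold with the set as a term and with the block. In the 8 mice of the low set 7 did, with Ltf at an unadjusted limma p of 0.0527 and S100a9 at 0.0563.

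The other 12 mice, given angiotensin II alone or vehicle + AEC, share no animal with this comparison. Their neutrophil sums were 11.4 to 32.9 FPKM (median 22.6) with angiotensin II and 11.8 to 21.9 FPKM (median 15.5) with vehicle + AEC. Between those groups, 2 of the 18 members (S100a9 and Retnlg) had an unadjusted p under 0.05, both higher with angiotensin II. Of all 24280 genes, 332 were higher with angiotensin II in that comparison, and 2.2% passed in either direction. The list's median log2 difference was 0.21. Ctsg was found with 13 reads in the angiotensin II mice, 12 of them in mouse 3, and with 12 reads in the vehicle + AEC mice, so that its absence was seen in all mice of the vehicle group only.

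Among the 36 lists not taken from the study, the next highest median was that of red cell genes. Of 14 erythroid and haemoglobin genes described here, 13 had differences above 0, 1 was higher (Slc4a1; 0.943% of all genes) and none lower, with a list median of 0.25. Slc4a1, the band 3 anion exchanger, ranged from 0.0509 to 0.190 FPKM in vehicle mice and from 0.131 to 0.621 in treated mice, where 4 of the 6 exceeded every vehicle mouse and mouse 4 was highest (log2 difference 0.83 ± 0.26, limma p = 0.00788, exact p = 0.013).

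Alas2, the erythroid enzyme of haem synthesis, averaged 0.668 ± 0.49 FPKM in vehicle and 1.36 ± 0.68 in treated brains, just short of the threshold (limma p = 0.0535, exact p = 0.0801; 0.0160 with the set as a term). The far more abundant haemoglobin genes overlapped widely. Hba-a1, an alpha globin, lay between 12 and 76.5 FPKM in vehicle mice (median 28.3) and between 13.7 and 67.1 FPKM in treated mice (median 56.5). Its log2 difference of 0.37 had a 95% interval from -0.81 to 1.54, and that of the beta globin Hbb-bs, 0.40, one from -0.71 to 1.52. Haemoglobin genes are near-identical copies among which reads can be split. Globin transcripts made up 0.00263% to 0.0157% of fragments in vehicle and 0.00331% to 0.0137% in treated libraries, with medians of 0.00620% and 0.0121%. Summed erythroid genes were lowest in treated mice 2 and 3 (155 and 144 FPKM), the treated mice with the lowest neutrophil sums, and at 268, 277, 294 and 280 FPKM in treated mice 1, 4, 5 and 6. Treated mouse 5, the highest of these, had a neutrophil sum of only 20.3 FPKM. Vehicle mouse 5 was the highest vehicle mouse in both sums (330.5 and 19.3 FPKM). Vehicle mouse 6 had an erythroid sum of 285.4 FPKM with the lowest neutrophil sum, 10.3 FPKM. The part of erythroid genes in the neutrophil differences was not tested. The number of erythroid genes that were higher went from 1 to 4 with the replicate block, and was 2 with the set as a term or in the 8 mice of the low set.

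Among 12 border macrophage and monocyte genes, 2 were higher and 1 lower (0.943% and 0.931% of all genes), with a list median of 0.15. Ccl8, a chemokine made by border macrophages, was at 0 to 0.342 FPKM in vehicle mice (median 0.106) and at 0.192 to 0.876 FPKM in treated mice (median 0.320). The groups overlapped, and mouse 6 stood out in the treated group (log2 difference 1.2 ± 0.39, limma p = 0.00955, exact p = 0.0173). Ly6c2, a surface protein of inflammatory monocytes, averaged 0.0572 ± 0.041 and 0.170 ± 0.10 FPKM (log2 difference 0.73 ± 0.27, limma p = 0.0177, exact p = 0.0368; 0.124 in the 8 mice of the low set). Ms4a7, a membrane protein of border macrophages, was lower, at 0.162 ± 0.059 against 0.0914 ± 0.051 FPKM, but its unadjusted limma p of 0.0426 lay between 0.00777 and 0.0929 when single mice were left out and the call was lost for each mouse but vehicle mouse 5 and treated mouse 5. With the replicate block its limma p was 0.0787.

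**Figure D3:**
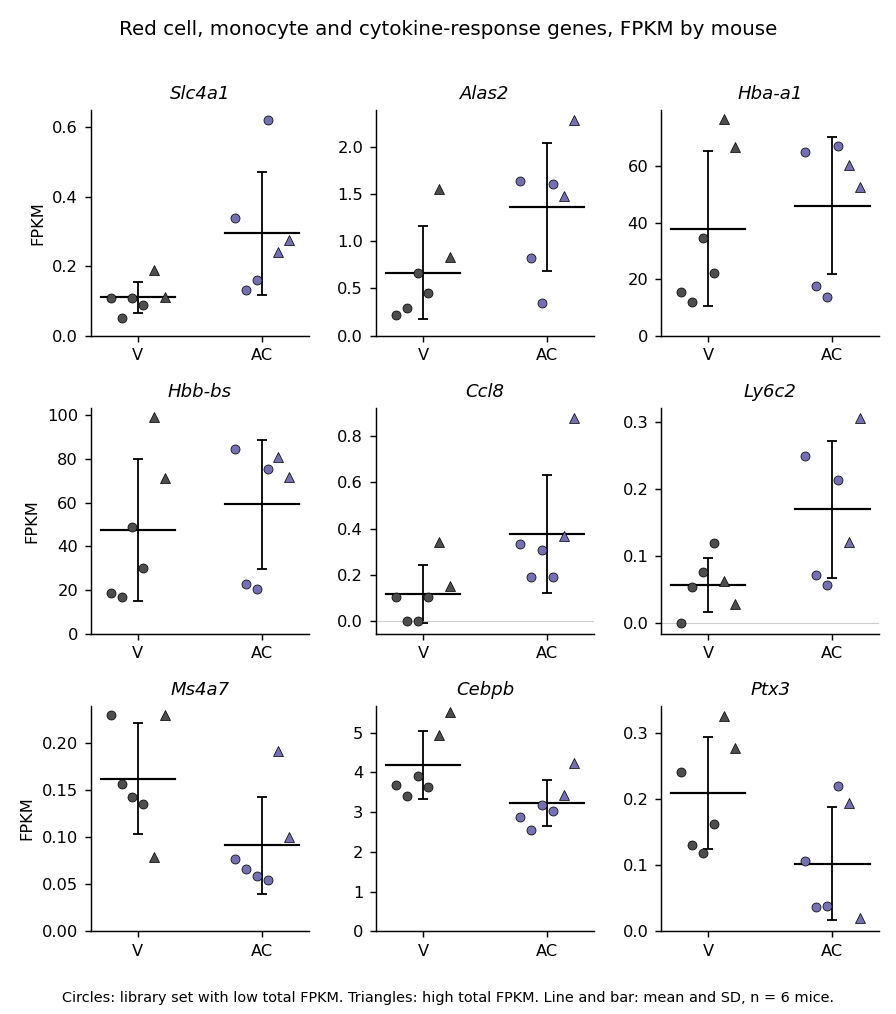
FPKM by mouse of red cell genes (Slc4a1, Alas2, Hba-a1, Hbb-bs), monocyte and border macrophage genes (Ccl8, Ly6c2, Ms4a7) and cytokine-response genes (Cebpb, Ptx3) in the vehicle (V) and angiotensin II + AEC (AC) groups. Points are 6 mice a group, triangles the libraries of high total FPKM, and the line and bar the mean and SD. Slc4a1 is above every V mouse in 4 of the 6 AC mice, whereas Hba-a1 and Hbb-bs overlap widely.

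Few cytokine-response genes differed. Of 29 tested cytokines, receptors and Socs genes, 2 were higher (Il17c and Ppbp; 0.943% of all genes) and 1 lower (Cebpb; 0.931% of all genes), and the list median was -0.05. Cebpb, a transcription factor of acute-phase and myeloid genes, was at 3.68, 3.41, 3.90, 3.62, 4.95 and 5.53 FPKM in vehicle mice 1 to 6 and at 2.88, 2.56, 3.19, 3.03, 3.42 and 4.24 FPKM in the treated mice. The groups overlapped over the 12 mice. Within each library set they did not: mice 1 to 4 of the treated group were all below mice 1 to 4 of the vehicle group, and mice 5 and 6 likewise. How many of all genes separate in this way within the sets was not counted, so this separation is a description only. The log2 difference was -0.36 ± 0.14 (limma p = 0.0269, exact p = 0.0411; 0.000262 with the set as a term and 0.000122 with the block). Leaving out single mice gave an unadjusted limma p of 0.00742 to 0.0635, and the call was lost without vehicle mouse 5 or 6 or treated mouse 1 or 2. The gene overlaps Tmem189.

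Ptx3, the long pentraxin 3, a soluble pattern-recognition protein also listed here as an astrocyte gene, averaged 0.209 ± 0.085 FPKM in vehicle and 0.103 ± 0.086 in treated brains (log2 difference -0.67 ± 0.28, limma p = 0.0344, exact p = 0.0541). Treated mice 1, 2, 3 and 6 were below every vehicle mouse, and mice 4 and 5 were within the vehicle range. The call was lost in the 8 mice of the low set (0.160) and without vehicle mouse 1, 5 or 6 or treated mouse 2, 3 or 6 (limma p 0.0108 to 0.0797 over single mice left out). Ppbp, the platelet chemokine precursor, had 13 reads in vehicle and 48 in treated mice (limma p = 0.0473, exact p = 0.0714, and 0.0127 to 0.109 with single mice left out, the call being lost without vehicle mouse 3, 4 or 6 or treated mouse 1, 4, 5 or 6), and Il17c, an epithelial cytokine, had 3 and 12 reads (limma p = 0.0130, exact p = 0.0346). In the 8 mice of the low set their limma p was 0.183 and 0.112.

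Cebpb and Ptx3 belong to 9 tested genes that the study names as lower with angiotensin II alone than with vehicle. All 9 had differences below 0 here, and 2 were lower, against 0.931% of all genes. That list was chosen by the study on the same 6 vehicle mice, so it is no independent evidence of direction. Endog, the mitochondrial endonuclease G, averaged 12.8 ± 2.6 and 11.4 ± 2.7 FPKM (log2 difference -0.18, limma p = 0.278, exact p = 0.331), but treated mice 1 to 4, at 9.35 to 10.3 FPKM, were all below vehicle mice 1 to 4, at 11 to 11.5 FPKM, and with the set as a term its unadjusted limma p was 0.00137. The share of all genes separated like this among mice 1 to 4 was not counted. The cytokine signalling inhibitors Cish (0.976 ± 0.094 against 0.837 ± 0.072 FPKM, limma p = 0.125, exact p = 0.0238) and Socs1 (0.700 ± 0.26 against 0.571 ± 0.30 FPKM, limma p = 0.357, exact p = 0.379) did not pass.

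Of 12 genes that the study names as higher with angiotensin II alone, 11 had differences above 0 and 4 were higher (0.943% of all genes): S100a8, S100a9, Ltf and Trbj2-3, a T cell receptor beta joining gene of only 49 bases whose 7 vehicle and 15 treated reads give values of little precision (limma p of 0.0530 in the low set). This list too was chosen by the study on the same vehicle mice. Among those named as higher when AECs were added to angiotensin II, 7 could be tested and all had differences above 0, with Camp, Ccl8, Il17c and Ppbp past the threshold (0.943% of all genes). The study chose these on the same angiotensin II + AEC mice. Of 10 tested genes named as lower when AECs were added, Treml4, a myeloid receptor, and Bpifb1, a secreted mucosal protein, were lower (0.931% of all genes). The study chose these 10 too on the same angiotensin II + AEC mice. Treml4 had 3, 2, 4, 6, 5 and 1 reads in vehicle mice 1 to 6 and 1, 1, 0, 0, 1 and 0 in the treated mice (log2 difference -0.74 ± 0.19, limma p = 0.00220, exact p = 0.00866), and Bpifb1 28 reads in vehicle and 10 in treated mice in all (limma p = 0.00931, exact p = 0.00866; 0.155 with all 4 groups in one fit).

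Among genes with a mean of at least 1 FPKM, 68 of 13636 had an unadjusted p under 0.05, which became 520 with the set as a term, 583 with the replicate block and 504 in the low set. Of the 20 with the lowest p, 11 are predicted gene models or cDNA clones and 2 microRNA genes, whose annotations here overlap longer transcripts, and 4 belong to the neutrophil list. The other 3 are mt-Tl1, Zfp830 and Tmem147os. The gene mt-Tl1 (chrMT:2676-2750 on the plus strand of GRCm38), which encodes the mitochondrial transfer RNA for leucine that reads UUR codons, is shown in full because it is the only gene above 10 FPKM whose groups did not overlap. The sequence is that of its GENCODE M21 transcript, with the anticodon in capitals.
mt-Tl1: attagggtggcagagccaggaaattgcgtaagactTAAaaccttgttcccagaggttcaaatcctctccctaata

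It was at 103, 112, 92.3, 113, 88.5 and 81.6 FPKM in vehicle mice 1 to 6 and at 77.5, 58.7, 61.9, 79.0, 63.0 and 81.3 FPKM in the angiotensin II + AEC mice. The lowest vehicle and the highest treated mouse, both number 6, lay side by side (log2 difference -0.49 ± 0.11, limma p = 0.000893, exact permutation p = 0.00216). That exact p follows from the separation for which mt-Tl1 was shown. Its neighbours on the same strand, the ribosomal RNA mt-Rnr2 and the complex I subunit mt-Nd1, averaged 2784 ± 619 and 8338 ± 1322 FPKM in vehicle and 2859 ± 841 and 8136 ± 1741 FPKM in treated brains (limma p = 0.948 and 0.904, exact p = 0.922 and 0.716). In the other 12 mice, mt-Tl1 averaged 93.4 ± 14 FPKM with angiotensin II and 91.1 ± 29 with vehicle + AEC. The libraries were made from poly(A) RNA, a method that captures transfer RNAs poorly.

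Zfp830, a nuclear zinc finger protein on chromosome 11, was higher by a small margin, at 5.11 ± 0.59 FPKM in vehicle and 6.10 ± 0.28 in treated mice, of which 4 exceeded every vehicle mouse (log2 difference 0.26 ± 0.08, limma p = 0.00781, exact p = 0.00649). Tmem147os, an antisense transcript on chromosome 7, was lower, at 5.71 ± 0.36 against 4.75 ± 0.51 FPKM, with 5 of 6 treated mice below all vehicle mice (log2 difference -0.27 ± 0.08, limma p = 0.00670, exact p = 0.00866). It overlaps other genes, and the sources used here do not say whether strand was used in counting. Cd59a, an inhibitor of the complement attack complex, was the only gene of 20 tested complement genes to pass (0.943% of all genes were higher), at 6.49 ± 0.40 and 7.23 ± 0.40 FPKM (log2 difference 0.15 ± 0.07, limma p = 0.0373, exact p = 0.013, and 0.0246 to 0.0898 with single mice left out, the call being lost without mouse 2, 3, 4 or 6 of either group, with all 4 groups in one fit at 0.194 and with voom at 0.110).

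**Figure D4:**
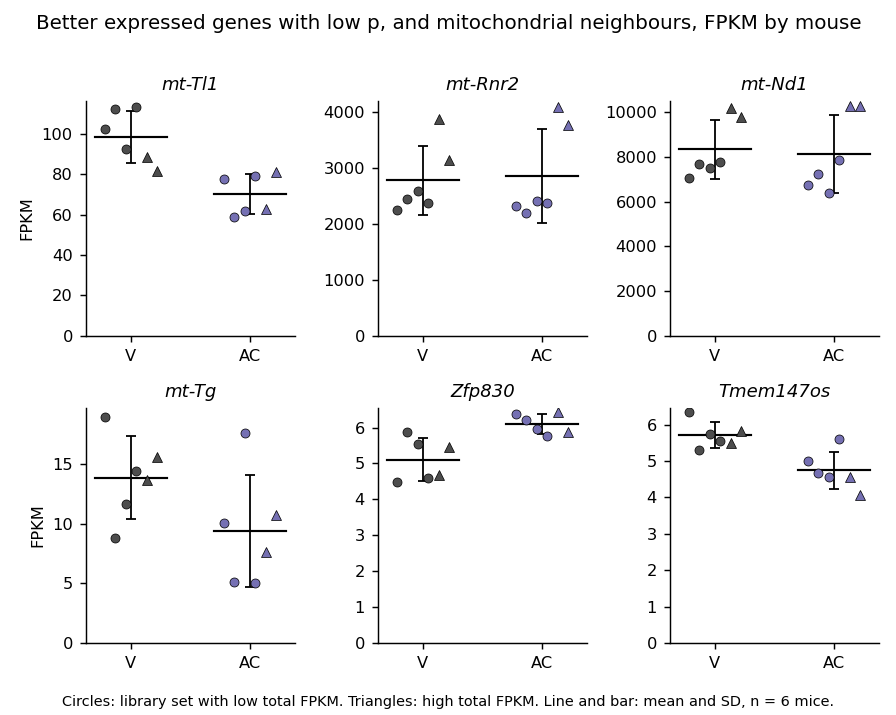
FPKM by mouse of mt-Tl1, its mitochondrial neighbours mt-Rnr2 and mt-Nd1, the mitochondrial transfer RNA mt-Tg, Zfp830 and Tmem147os in the vehicle (V) and angiotensin II + AEC (AC) groups. Points are 6 mice a group, triangles the libraries of high total FPKM, and the line and bar the mean and SD. All 6 AC values of mt-Tl1 lie below the lowest V value of 81.6 FPKM, while mt-Rnr2 and mt-Nd1 follow the library set.

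Of the genes with few reads, Ropn1, a sperm fibrous sheath protein, was among the 10 with the lowest p, with 23 reads in vehicle and 3 in treated mice (log2 difference -1.04 ± 0.23, limma p = 0.000602, exact p = 0.00433). Gpr171, a G protein-coupled receptor, was read 3, 1, 3, 1, 4 and 1 times in vehicle mice 1 to 6 and in no treated mouse, at least 4.25-fold lower against a floor of 3 reads over the group, but it lies within Med12l. It and Kif2c, a mitotic kinesin with 16 and 40 reads (log2 difference 0.44 ± 0.14, limma p = 0.00813, exact p = 0.00216), were chosen after their values were seen, since their groups did not overlap. The exact p of Kif2c follows from that choice. Gpr171, without reads in treated mice, could pass the filter only through all 6 vehicle mice, so its separation follows from the filter. The limma p of Kif2c was 0.0745 in the low set. Of 18 neurogenesis and proliferation genes, the cell cycle genes Mki67 (0.0702 ± 0.028 and 0.127 ± 0.055 FPKM, limma p = 0.0461, exact p = 0.0411) and Ccna2 (0.303 ± 0.10 and 0.451 ± 0.11 FPKM, limma p = 0.0435, exact p = 0.0303) were higher, against 0.943% of all genes. With the replicate block the limma p of Mki67 was 0.0578. With single mice left out, that of Mki67 ran from 0.0241 to 0.107, the call being lost without vehicle mouse 1, 3, 4, 5 or 6 or treated mouse 1, 2, 3 or 4. That of Ccna2 ran from 0.0195 to 0.0986, lost without vehicle mouse 2, 3, 4 or 5 or treated mouse 2, 3 or 4.

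Renin-angiotensin genes, the system that angiotensin II belongs to, held no call. None of 14 tested genes passed in either direction, with or without the set as a term, and the list median was -0.02. The lowest unadjusted limma p of the list was 0.128, for Agtr1b. Agt, the precursor angiotensinogen that astrocytes make, averaged 56.3 ± 11 FPKM in vehicle and 54.0 ± 11 in treated brains, with a log2 difference of -0.06 and a 95% interval from -0.40 to 0.27. Ace, the converting enzyme, averaged 6.59 ± 0.62 and 6.30 ± 0.44 FPKM (95% interval of the log2 difference -0.23 to 0.11). The type 1 receptor gene Agtr1a averaged 0.105 ± 0.049 and 0.160 ± 0.073 FPKM (95% interval -0.13 to 0.79).

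Other gene groups held few calls or none. Outside the study's own lists, 29 of 36 lists had no member past the threshold. With the set as a term 12 of these 29 had 1 or 2 members past it, where 4.37% of all genes passed: 2 genes were higher among collagens and matrix and 2 among interferon-stimulated genes, 1 was higher in blood-brain barrier endothelium and 1 lower in pericytes and vascular smooth muscle. The 29 lists include those of blood-brain barrier endothelium (20 genes, list median -0.0024), endothelial adhesion molecules (11, 0.06), pericytes and vascular smooth muscle (15, -0.02), collagens and matrix (23, 0.0078), microglia (19, 0.02), T cells and NK cells (20, -0.04), myelin and oligodendrocytes (16, 0.04), and synapse and glutamate receptors (21, 0.0034). The lowest unadjusted limma p was 0.133 among endothelial adhesion molecules (Cd34) and 0.464 among microglial genes (Fcrls). A member of each of these lists is given as an example. Vcam1, the endothelial adhesion molecule, averaged 2.55 ± 0.33 and 2.51 ± 0.40 FPKM (95% interval of the log2 difference -0.31 to 0.25). The microglial receptor gene Cx3cr1 averaged 8.34 ± 1.3 and 8.29 ± 1.2 FPKM (-0.28 to 0.27). Of 22 interferon-stimulated genes 20 had differences above 0 but none passed (list median 0.13), and of 18 choroid plexus genes 16 had differences below 0 and none passed (list median -0.12). The choroid plexus sums ran from 631 to 1202 FPKM in vehicle and from 417 to 1073 FPKM in treated mice. As a check of the labelled tissue, synapse genes summed to 2418 to 3384 FPKM in vehicle and 2381 to 3315 FPKM in treated mice, and myelin genes to 1424 to 1961 and 1397 to 2050 FPKM.

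**Figure D5:**
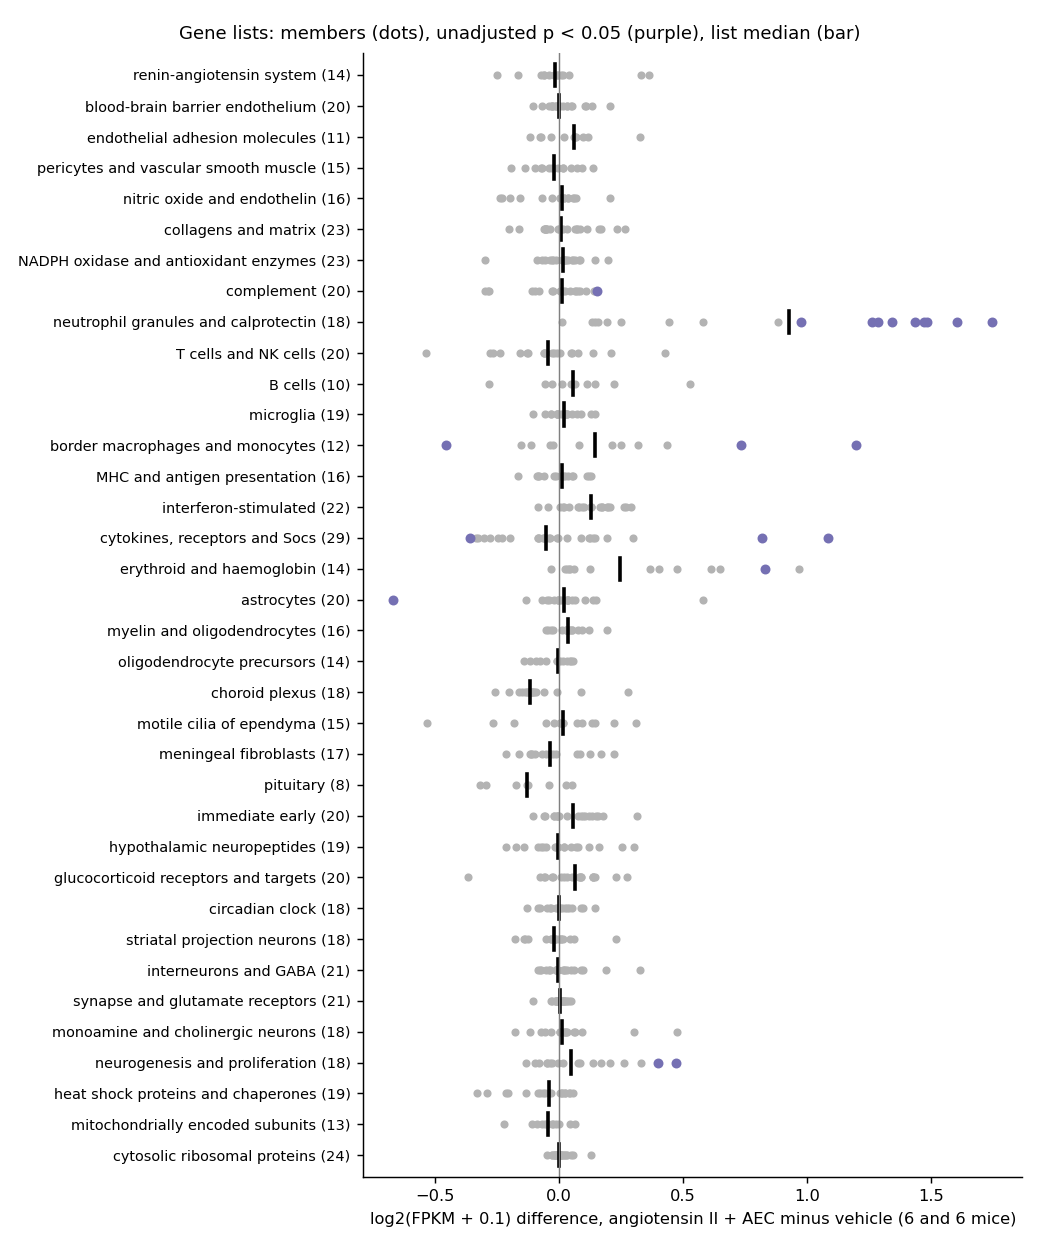
Members of 36 gene lists (number tested in parentheses) by their log2(FPKM + 0.1) difference, angiotensin II + AEC minus vehicle, over 6 and 6 mice (x axis). Dots are genes, purple those at an unadjusted p under 0.05, and the black bar is the list median. The neutrophil list is set to the right, with a median of 0.93, and the erythroid list is next at 0.25.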

How the data were processed

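Poly(A) RNA of brain hemispheres was sequenced from 24 mice in 4 groups. Reads were mapped by the authors against GRCm38 (mm10, Ensembl), and deposited as FPKM values in 1 table that gives every mouse a column. The submitters' processing notes name DESeq 1.10.1, and the aligner, the counter and the use of strand are not given in the sources used here. FPKM times gene length gave whole fragments for 100% of values (within 0.02 of a fragment), from which reads and depth were taken. The floor of 3 reads covers counting error only, since the reads carry no molecular identifiers, and 95% intervals are those of limma, from the spread between mice.

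Genes with a value above 0 in 6 or more of the 12 mice entered limma 3.58.1 (R 4.3.3; moderated test with a trend, 2-sided) on log2(FPKM + 0.1), a scale that understates the change of low genes, with Benjamini-Hochberg adjustment over 24280 genes. Single genes were also given an exact permutation test, 2-sided, over all 924 splits. Lists were described by counts and medians. The members and lists were chosen with earlier results of these data known. Most genes were named by rule: the 20 lowest p at a mean of at least 1 FPKM, the 10 lowest p of all, list members at an unadjusted p under 0.05 or else the lowest p or most abundant ones, and genes named in the study's text. Others, such as Ace, Agtr1a, Vcam1, Cx3cr1, Prtn3, Csf3r, Mmp9, Gpr171 and Kif2c, were picked outside this rule as examples. Some gene models and items are not reported here. Figures and tables were made with Python 3.11.15, pandas 2.3.3 and matplotlib 3.10.9.

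Same-numbered mice of the groups deviated together over genes (correlations 0.193 to 0.555), but all of treated mice 1 to 4 correlated best with vehicle mouse 1. After the library set was removed, same-numbered mice 1 to 4 gave -0.0122 to 0.0310, and the best matches of treated mice 1 to 4 were vehicle mice 5, 3, 1 and 4. The pairing thus rests on the library set. Alternatives were a pseudocount of 1 or 0.01, other filters, all 4 groups in one fit, a replicate block, library set as a term, the low set alone, median-ratio rescaling, array weights, limma voom applied to recovered reads, and leaving out each mouse. Human transcripts from the injected cells could not be seen in a table of mouse genes. Mice are separate animals, and p-values set a difference against the spread between them. That spread includes the library sets where no term absorbs them.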

Additional observations from a re-analysis of the deposited data

Results flagged for a closer look

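Dixon's test at 95% was run 90 times for a mouse far from its group (2 groups of 6 mice for 45 named genes). Chance alone gives about 1 in 20 if values are normally distributed, which was not checked for these genes. There were 6 values that stood apart from the others of their group. In the angiotensin II + AEC group they were Elane at 1.194 FPKM in mouse 4 (next 0.455), Lcn2 at 4.195 FPKM in mouse 1 (next 1.549), Ccl8 at 0.876 FPKM in mouse 6 (next 0.370), Ms4a7 at 0.191 FPKM in mouse 5 (next 0.101), and Trbj2-3 at 4.995 FPKM in mouse 4 (next 2.327). In the vehicle group it was Trbj2-3 at 4.391 FPKM in mouse 1 (next 1.601).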

How the results depend on the processing

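The number of genes at an unadjusted p under 0.05 (455) rose most where the library sets were absorbed by a term, left out or weighted down. It was 1143 with the replicate block and 1062 with the set as a term, which absorb the sets. Without the libraries of high total FPKM it was 1055, and with array weights, which were lowest for those libraries, 1164. It was 73 among genes with a mean of at least 1 FPKM, where fewer genes are tested, and 434 to 549 with single mice left out. Genes at an adjusted p under 0.05 numbered 1 with a pseudocount of 0.01 (Ctsg), 1 with the set as a term, 2 without the high libraries, 0 to 1 with single mice left out (1 without angiotensin II + AEC mouse 3), and 0 under the other alternatives. The neutrophil list kept 9 members past the threshold under most alternatives, 4 at a mean of at least 1 FPKM and 9 to 10 with single mice left out. Of 45 named genes 30 were past the threshold as reported, and 30 of these kept their direction under every alternative and 15 their side of the threshold. The log2 difference of Csf3r changed sign without the high libraries (-0.1143), with voom (-0.0033) and array weights (-0.0593), and when single mice were left out (-0.1143 to 0.0925). That of Agt ran from -0.1511 to 0.0174 with single mice left out and was above 0 without vehicle mouse 5 (0.0174) or angiotensin II + AEC mouse 2 (0.0083). The cause was not tested. A test of whether the difference varied between the library sets, added after seeing the data, passed the adjusted threshold for 0 genes (lowest adjusted p 0.0661; 1249 genes at an unadjusted p under 0.05). At these depths genes under 1 FPKM rest on few reads.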

Other observations

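The genes in this section were grouped after their values had been seen, and their counts are descriptions. Of 24 sterol synthesis and uptake genes none passed over the 12 mice as they stand, but with the set as a term 5 were higher (unadjusted limma p under 0.05, against 2.23% of all genes) and none lower. Insig1, which retains the sterol sensor in the endoplasmic reticulum, was at 19.0 to 19.7 FPKM in vehicle mice 1 to 4 and at 22.3 to 24.1 FPKM in angiotensin II + AEC mice 1 to 4. In mice 5 and 6 it was at 11.6 and 10.3 FPKM with vehicle and at 11.9 and 11.2 FPKM with both treatments (limma p = 0.000470 with the set as a term, exact p = 0.511 over the 12 mice). Cyp51, lanosterol demethylase, averaged 15.0 ± 1.3 and 16.0 ± 1.3 FPKM (limma p = 0.00210 with the set as a term, exact p = 0.201 over the 12 mice). The list's median log2 difference was 0.05, and in the other 12 mice it was -0.02.

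Among 18 tested mitochondrial transfer RNA genes, 15 had differences below 0 and 2 were lower, mt-Tl1 and mt-Tg (13.9 ± 3.5 against 9.36 ± 4.7 FPKM, limma p = 0.0388, exact p = 0.0714; 0.00354 to 0.0916 with single mice left out, lost without vehicle mouse 1, 4, 5 or 6 or treated mouse 2, 4 or 5; 0.136 in the low set). Over all genes tested, 0.931% were lower and 50.9% had differences above 0. The list median was -0.23, while that of the 13 mitochondrially encoded protein genes was -0.05 with none past the threshold. In the other 12 mice the transfer RNA median was 0.14. Of 5 tested granulocyte precursor genes, Ly6c2 was higher (0.943% of all genes), and Cebpe, a transcription factor of granulocyte maturation, had 8 reads in vehicle mice, all in mice 5 and 6, and 17 in treated mice, of which mouse 6 had none.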
